A study of Homo sapiens with 4 samples.

Results

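MSTO-211H cells given QTP alone were compared with cells given vehicle, by setting the cells of the library labelled Drug against the cells of the library labelled Control. A cell entered when under 20% of its unique molecular identifiers (UMIs, the counted RNA molecules) came from mitochondrially encoded genes. That kept 3802 of 3806 Drug barcodes and 3183 of 3184 Control barcodes, 6985 of the 16400 cells that pass the same limit in the 4 libraries of the series. No barcode was shared between any 2 libraries (0 of each pair).

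MSTO-211H is an established human pleural mesothelioma line, labelled WT for genotype, and was grown here in suspension without serum, with EGF, bFGF and heparin, in a study of mesothelioma-initiating cells. Drug cells received 10 µM QTP and no radiation, and Control cells received vehicle and no radiation. The other libraries received 4 Gy with 10 µM QTP (Drug_Radiation) or without it (Radiation), and all 4 carry a 48 h time point. The labels do not spell out what QTP stands for, and the title of the series places it under dopamine receptor inhibition.

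Each group is 1 library, made from dissociated cells that were pooled before fixation, so the effect of QTP and the making of that library cannot be told apart, and no p-value is given. Cells are not replicates. Intervals are exact 95% intervals that cover counting error only, Poisson for a level, conditional binomial for a ratio and Clopper-Pearson for a share of cells.

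Drug held 90903552 UMIs and Control 9249567. A Drug cell had a median of 20405 UMIs (6427 to 132597) and 4409 genes, and a Control cell 2318 UMIs (1009 to 17942) and 920 genes. The lowest UMI total therefore also differed, which sets where each library's barcodes were taken as cells. A count of 0 allows up to 0.0344 CPM (counts-per-million of nuclear-encoded UMIs, taken at 3 counts) in Drug and 0.335 in Control. Mitochondrially encoded genes took 4.08% of UMIs in Drug and 3.26% in Control, and cytosolic ribosomal protein genes and their copies took 28.4% and 37.9% of the nuclear-encoded UMIs in Drug and in Control. With ribosomal protein genes left out of the totals the counts given below became 59 higher and 236 lower, and the part of mitochondrial share was not tested. The labels name a PIPseq kit in the protocol and 10x Genomics in the description of the libraries.

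The cells carried keratins and vimentin. KRT18, a keratin of simple epithelium, had 2852 CPM in Drug and 2781 in Control, and VIM, the mesenchymal intermediate filament vimentin, had 2816 in Drug and 2998 in Control. Mesothelial markers were low or near 0. CALB2 (calretinin) had 49.2 CPM in Drug and 27.6 in Control, MSLN (mesothelin) 13.2 and 8.27 in Drug and Control, and WT1 1.86 in Drug and 1.12 in Control, while UPK3B (uroplakin 3B) had 17 UMIs in Drug and 0 in Control. Of 23 mesothelial and epithelial markers, 6 reached the 10 CPM needed to be measured. Fibroblast markers were present at low levels, and 7 of them summed to 83.8 CPM in Drug and 51.7 in Control, led by LUM at 27.9 in Drug and 17.9 in Control and COL3A1 at 21.8 in Drug and 12.6 in Control. Defining markers of leukocytes, endothelium and erythroid cells were near 0. PTPRC, the pan-leukocyte antigen, had 18 UMIs in Drug and 3 in Control, PECAM1 of endothelium 38 and 5 in Drug and Control, and HBB of erythroid cells 2 in Drug and 1 in Control. Summed levels were 41.4 CPM in Drug and 18.2 in Control for 13 leukocyte markers, nearly all of it CD68, and 150 in Drug and 71.5 in Control for 8 neuronal markers, mostly TUBB3.

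As background, cells make cholesterol from acetyl-CoA through the mevalonate pathway and take it up as LDL. When sterol in the endoplasmic reticulum is low, SCAP carries the SREBP transcription factors to the Golgi, where they are cleaved and then raise the genes of both routes, while INSIG proteins hold SCAP back when sterol is ample. Cationic amphiphilic drugs, among them many receptor antagonists of dopamine and serotonin, are known to collect in lysosomes and to hinder cholesterol movement or synthesis. Mesothelioma lines of mixed histology show both keratins and mesenchymal genes.

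UMIs of all cells of a library were added up and the libraries compared as the difference of log2(CPM + 1), Drug minus Control. The median of 7556 measured genes (mean of both libraries at least 10 CPM) was 0.47 higher in Drug on that scale. All ratios below are relative to that median gene, so a gene or list between -0.47 and 0 still had a higher CPM in Drug. The interval of a ratio was computed from counts without the added 1 CPM and shifted by the same median. A ratio is therefore not at the middle of its interval. For a gene low in 1 library it can lie outside, as for ATP6V0D2 at -5.34 with an interval of -5.86 to -5.50. A gene was counted as 2-fold higher or lower at a relative log2 ratio of 1 or more, in either direction. By that measure 42 genes were 2-fold or more higher in Drug, 0.556% of those measured, and 213 were 2-fold or more lower, 2.82%. The split depended on the scaling, with 78 higher and 192 lower under TMM factors, 77 higher and 193 lower under median-of-ratios factors, and 563 higher and 141 lower with no centring. The middle 90% of genes lay between -0.69 and 0.62.

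The lower side grew with abundance. Of 157 genes at 1000 CPM or more, 36 were 2-fold or more lower and 1 was higher, with a median of -0.70, whereas 3934 genes between 10 and 30 CPM had a median of -0.00. All 42 higher genes were protein-coding, and of the 213 lower genes 163 were protein-coding and 25 were cytosolic ribosomal protein genes or their copies.

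**Figure D1:**
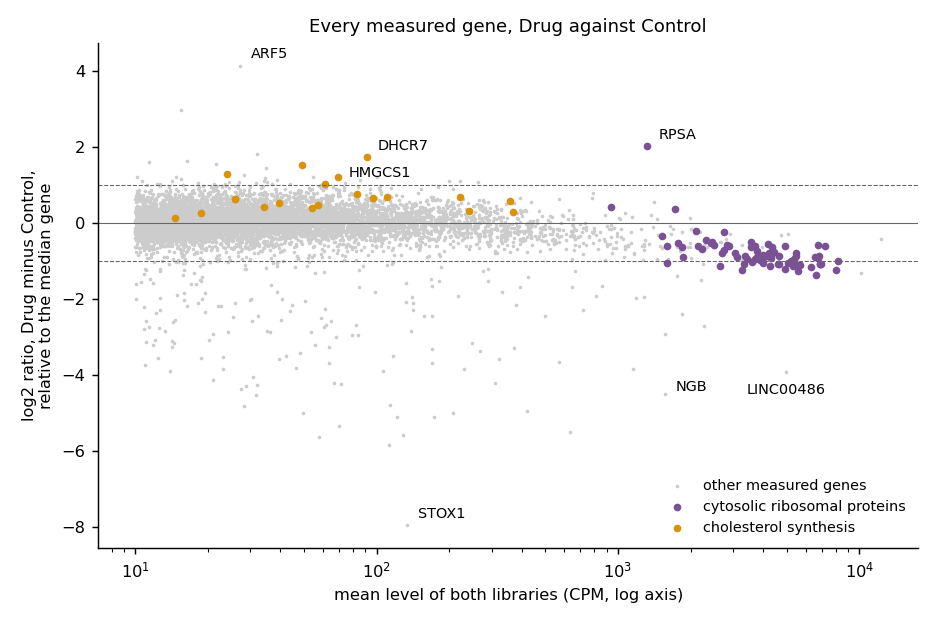
Relative log2 ratio, Drug minus Control, of the 7556 measured genes (y axis) against their mean level in both libraries (x axis, CPM, log axis), with cholesterol synthesis genes and cytosolic ribosomal protein genes coloured and dashed lines at 2-fold. Cholesterol synthesis genes lie above 0, ribosomal protein genes other than RPSA lie mostly below 0, and most genes past 2-fold are lower in Drug.

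Because depth differed so far, the comparison was repeated on cells of equal depth. The 175 Control cells with at least 6500 UMIs were each paired with the Drug cell nearest in UMIs, at medians of 7797 UMIs in Drug and 7793 in Control. These are 4.60% of Drug cells, all among the shallowest 39.3% of that library, and 5.50% of Control cells, the deepest. The 2 sets also differed in mitochondrial share, 5.99% in Drug and 2.89% in Control, and the part of that in the matched values was not tested. With about 1.46e+06 UMIs a side the matched ratios of low genes are coarse, and 690 genes of 8115 were past 2-fold higher and 307 past 2-fold lower. Matched ratios also fell with abundance, taken as the mean level over all cells of both libraries. Their median was 0.16 for genes between 10 and 30 CPM, -0.33 between 100 and 300 CPM and -0.37 between 300 and 1000 CPM. A matched value of an abundant gene or list is therefore to be read beside these medians. Of the 42 higher genes 36 kept their sign among matched cells and 11 stayed past 2-fold, and of the 213 lower genes 203 kept their sign and 138 stayed past 2-fold. A further comparison used the irradiated libraries, Drug_Radiation against Radiation, which share no library with the first pair. Depth differed there in the same direction, at medians of 18024.5 UMIs a cell in Drug_Radiation and 5299 in Radiation. All cells were used without matching, and the part of depth in the irradiated ratios was not tested. In that pair 33 of the 42 higher genes had the same sign and 9 were past 2-fold, and 181 of the 213 lower genes had the same sign and 115 were past 2-fold.

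Cholesterol synthesis genes were higher in Drug. All 20 listed enzymes were measured and lay above the median gene, and 5 were 2-fold or more higher, 25% of the list against 0.556% of all measured genes. Their median relative log2 ratio was 0.63, against 0 for the median gene, with a range of 0.14 to 1.73. Summed over the list, the enzymes had 2779 CPM in Drug and 1312 CPM in Control. Among depth-matched cells the sum was 2493 CPM in Drug and 1348 in Control, the median was 0.48, and 17 of 20 lay above the median gene. In the irradiated pair the sum was 2090 CPM in Drug_Radiation and 1385 CPM in Radiation, with a median of 0.41.

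Among the early enzymes, HMGCS1, which makes HMG-CoA, had 106 CPM in Drug and 32.6 CPM in Control, a relative log2 ratio of 1.20 (1.06 to 1.40) that became 1.73 (1.30 to 2.26) among depth-matched cells. MVD, which makes isopentenyl diphosphate, had 79.2 CPM in Drug and 19.2 in Control, a ratio of 1.51 (1.35 to 1.80) and 0.84 when matched. MVK, mevalonate kinase, was the least changed of the list at 17.9 CPM in Drug and 11.4 in Control, with an interval of -0.11 to 0.48 that includes the median gene. The early steps were thus higher to very different degrees.

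Among the later enzymes, DHCR7, which reduces 7-dehydrocholesterol to cholesterol, had the highest ratio of the list. Its level was 151 CPM in Drug and 32.0 CPM in Control, 4.71-fold by CPM, with a relative log2 ratio of 1.73 (1.59 to 1.94), 1.19 (0.77 to 1.68) when matched and 0.93 in the irradiated pair. LSS, which closes the sterol ring, had 37.8 CPM in Drug and 10.4 in Control, a ratio of 1.29 that was 0.12 (-0.68 to 0.99) when matched, so its difference was not seen at equal depth. SQLE, squalene epoxidase, was at 0.67 and 0.85, and TM7SF2, a sterol reductase and the second lowest of the list, was at 0.26 and -0.24, each given for all cells and then for matched cells. PMVK, phosphomevalonate kinase, also changed sign, at 0.62 in all cells and -0.74 (-1.60 to 0.05) when matched.

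**Figure D2:**
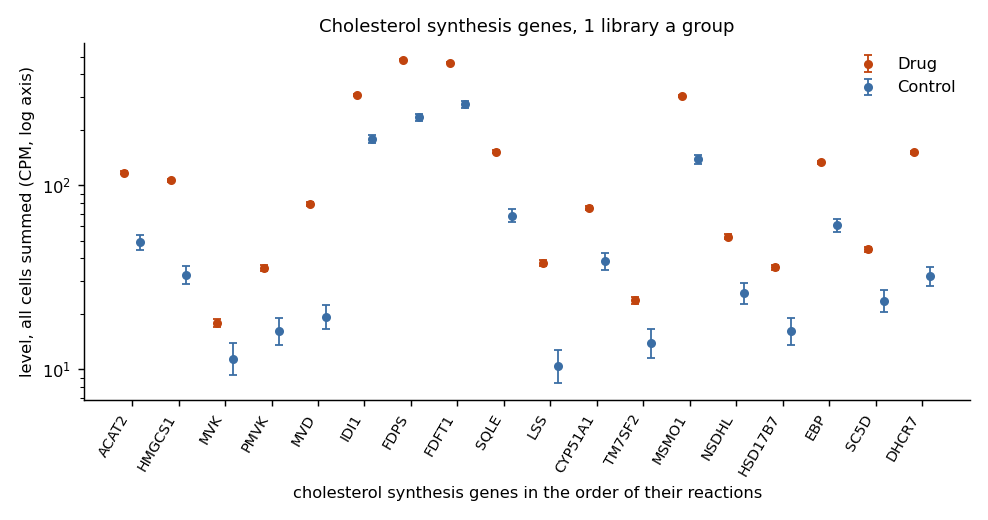
Level of cholesterol synthesis genes in Drug (left point of a pair) and Control (right point), in CPM on a log axis, with 95% Poisson intervals, all cells summed and 1 library a group. Every gene plotted has a higher CPM in Drug, with the widest gaps at HMGCS1, MVD, LSS and DHCR7.

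The promoters of the 3 of these genes with the highest ratios that also held past a relative log2 ratio of 0.8 among matched cells are shown, since a binding site of the general factor NF-Y, the letters CCAAT, is a known companion of SREBP sites at sterol genes. The windows are 300 bases, mostly upstream of the annotated start, from RefSeq on GRCh38.p14, read along the gene's own minus strand, and CCAAT or its reverse complement ATTGG is in capitals. HMGCS1 is at chr5:43313363-43313662, DHCR7 at chr11:71448344-71448643 and MVD at chr16:88663042-88663341.
HMGCS1: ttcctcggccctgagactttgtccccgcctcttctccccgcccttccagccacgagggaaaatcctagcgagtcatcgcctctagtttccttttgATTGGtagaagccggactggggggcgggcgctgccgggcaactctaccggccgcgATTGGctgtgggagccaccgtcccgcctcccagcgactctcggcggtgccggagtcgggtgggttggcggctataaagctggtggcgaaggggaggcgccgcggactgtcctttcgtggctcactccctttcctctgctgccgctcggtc
DHCR7: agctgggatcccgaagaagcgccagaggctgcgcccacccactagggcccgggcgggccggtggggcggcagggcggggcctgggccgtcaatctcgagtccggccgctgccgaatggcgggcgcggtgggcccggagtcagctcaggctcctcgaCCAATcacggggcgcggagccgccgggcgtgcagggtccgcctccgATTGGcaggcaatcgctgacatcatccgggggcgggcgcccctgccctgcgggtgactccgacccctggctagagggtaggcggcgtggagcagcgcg
MVD: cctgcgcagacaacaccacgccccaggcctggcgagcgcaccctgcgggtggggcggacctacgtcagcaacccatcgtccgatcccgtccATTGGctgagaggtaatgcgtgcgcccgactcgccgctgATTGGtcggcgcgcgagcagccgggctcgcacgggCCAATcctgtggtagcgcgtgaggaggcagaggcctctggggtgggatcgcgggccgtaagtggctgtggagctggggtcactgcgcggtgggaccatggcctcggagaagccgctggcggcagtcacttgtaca
HMGCS1 holds 2 matches, DHCR7 holds 2 and MVD holds 3. A window was found for 15 of the 20 cholesterol synthesis genes, and 12 of the 15 (80%) held CCAAT on either strand, 9 of them more than 1 copy. Of the first windows of all measured genes with an entry, 37.2% (2298 of 6175) held it, and of all 35116 windows 34.6% did. The sterol response element TCACNCCAC, searched on both strands, was in 0 of the 15 windows and in 1.07% of those of measured genes. A match of letters is a description of the window, not a bound site.

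Sterol uptake and sensing genes were also above the median gene. Of 14 listed genes 11 were measured, 10 lay above the median gene, none (0) reached 2-fold, and the median was 0.62 in all cells and 0.89 among matched cells. Summed levels were 1170 CPM in Drug and 634 in Control. INSIG1, the sterol-sensitive anchor of SCAP and itself an SREBP target, had 86.8 CPM in Drug and 40.2 in Control, at 0.62 in all cells and 1.30 when matched. INSIG1 therefore passed 2-fold among matched cells and not in all cells. Within Drug it was lower in deeper cells, with 110 CPM in the shallow group of its cells (cut by UMIs into 3 equal groups) and 79.4 CPM in the deep group.

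TMEM97, the sigma-2 receptor of the endoplasmic reticulum, was the highest of the uptake list at 108 CPM in Drug and 39.6 in Control, with ratios of 0.95 and 1.49 in all and matched cells. NPC1, which exports cholesterol from lysosomes, had 40.8 CPM in Drug and 15.5 in Control, at 0.87 and 1.52. The lowest 2 were SCAP, the SREBP escort, at -0.09, and SCARB1, an HDL receptor, at 0.06. Of 11 sterol efflux and LXR target genes 6 were measured with a median of 0.48. PLTP, a phospholipid transfer protein, and NR1H2, the LXR beta receptor, headed that list at 0.91 and 0.89, but were at -0.47 and -0.26 among matched cells. SREBF1, which encodes SREBP-1, was at -0.00 in all cells, 0.85 when matched and 1.07 in the irradiated pair.

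Fatty acid genes followed in part. Of 21 listed genes 17 were measured, 11 lay above the median gene and 2 were 2-fold or more higher, 11.8% against 0.556% of all genes, with a median of 0.37 in all cells and 0.43 among matched cells. SCD, the stearoyl-CoA desaturase, had 299 CPM in Drug and 101 CPM in Control, a ratio of 1.09 (1.002 to 1.20), 1.47 (1.21 to 1.77) when matched and 1.28 in the irradiated pair. ACLY, which makes cytosolic acetyl-CoA for both pathways, had 153 CPM in Drug and 47.5 in Control, at 1.20 and 1.15 when matched. LPIN1, a phosphatidate phosphatase, was at 0.94 and 1.52. At the low end stood AGPAT2, an acyltransferase of phospholipid synthesis, at -0.47 and -0.998, and ACACA, acetyl-CoA carboxylase, at -0.30 in all cells but 0.97 when matched.

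Sterol gene levels were set beside cell depth, since deeper cells differ in many ways. Cells of each library were cut into 3 equal groups by UMIs (shallow, middle and deep), with median depths of 11798.5, 20414 and 34930 in Drug and 1401, 2318 and 4394 in Control. Cholesterol synthesis genes summed to 2830, 2859 and 2722 CPM from the shallow to the deep group of Drug, and to 1143, 1329 and 1352 CPM in Control. All 3 groups of Drug were above all 3 of Control, but the deep group of Control had a lower median depth than the shallow group of Drug, and the part of depth was not tested by these groups.

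The difference was seen across cells and not in a few of them. With every cell thinned to 6500 UMIs, which kept 3789 Drug cells and 175 Control cells, the median share of a cell's UMIs in cholesterol synthesis genes was 0.246% in Drug and 0.123% in Control. Of Drug cells 82.1% lay above the Control median, as did 37.7% of Control cells, which is under 50% because of ties. With cells thinned to 1000 UMIs, which kept all 3802 Drug and 3183 Control cells, the mean share was 0.268% in Drug and 0.122% in Control. HMGCS1 had a UMI in 9.31% of Drug cells and 2.95% of Control cells at 1000 UMIs, and in 71.1% and 8.23% of Drug and Control cells at full depth. All cells are of 1 line, so no cell type that lacks the gene gives a background for such shares.

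**Figure D3:**
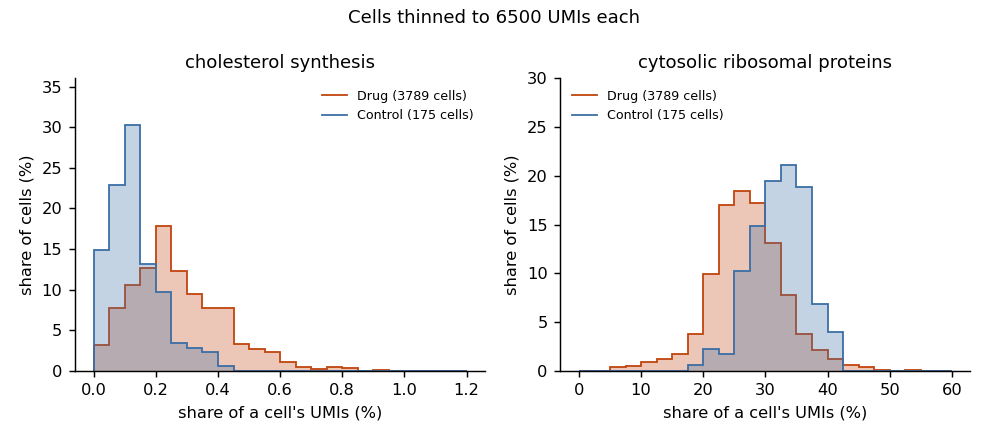
Share of a cell's UMIs in cholesterol synthesis genes (left panel) and in cytosolic ribosomal protein genes (right panel), as the share of cells per bin, for 3789 Drug cells and 175 Control cells thinned to 6500 UMIs each; cells above the axis range are in the last bin. Drug cells lie to the right of Control cells for cholesterol synthesis (medians of 0.246% and 0.123% in Drug and Control) and to the left for ribosomal proteins (medians of 27.0% and 32.5%).

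Cytosolic ribosomal protein genes were lower in Drug. Of 78 measured, 75 lay below the median gene and 24 were 2-fold or more lower, 30.8% against 2.82% of all genes, with a median of -0.89. They summed to 275841 CPM in Drug and 367004 CPM in Control, and to 298358 and 333407 in Drug and Control among matched cells. Their matched median was -0.49. The 157 genes at 1000 CPM or more had a matched median of -0.49, but ribosomal protein genes are a large part of them. That value therefore cannot show whether ribosomal genes differed from other abundant genes at equal depth, and no conclusion is drawn from it. The ribosomal gap was smaller still in the irradiated pair, at -0.23. RPL27 was at -1.37 with 4618 CPM in Drug and 8574 in Control, and RPL34 at -1.26 with 4104 in Drug and 7095 in Control. Within each library the sum also fell with depth, with 302180, 287205 and 262282 CPM in the 3 depth groups of Drug and 416538, 383668 and 345070 CPM in those of Control. Of Drug cells thinned to 6500 UMIs, 15.7% lay above the Control median of the ribosomal share.

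RPSA and RPS26 were among the 3 ribosomal protein genes above the median gene. RPSA had 2248 CPM in Drug and 401 CPM in Control, a ratio of 2.01. RPSAP58, a named copy of RPSA, ran the other way, with 483 CPM in Drug and 2644 CPM in Control, and the pair summed to 2731 CPM in Drug and 3045 CPM in Control. RPSA held 82.3% of that sum in Drug and 83.6% in Drug_Radiation, against 13.2% in Control and 18.4% in Radiation. The share of the pair given to each copy therefore differed between the QTP libraries and the others, while the sum was near equal, and the RPSA value alone is uncertain as a measure of the gene. Whether the counting of near-identical copies differed between libraries was not tested.

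Respiratory genes of the nucleus stood slightly below the median gene. Of 37 complex I genes 27 lay below it with a median of -0.18, and of 39 genes of complexes II to V 34 lay below it with a median of -0.30, which is 0.17 with no centring. Among matched cells the medians were -0.43 and -0.40, and in the irradiated pair they were 0.07 and 0.04. The matched medians of all genes were -0.33 between 100 and 300 CPM and -0.37 between 300 and 1000 CPM. The 2 genes past 2-fold, 5.13% of the 39 against 2.82% of all genes and so near the background, were CYC1, cytochrome c1, with 83.9 CPM in Drug and 182 in Control (-1.58, and -1.35 when matched), and ATP5F1D, an ATP synthase subunit, at -1.06. CYC1 was at 0.28 in the irradiated pair. Mitochondrially encoded transcripts, which are not among the measured genes, amounted to 42521 CPM in Drug and 33696 in Control. By CPM, without centring, the nuclear lists were also higher in Drug. Complex I genes summed to 10525 CPM in Drug and 9222 in Control, and complexes II to V to 20463 in Drug and 19448 in Control.

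Stress, lysosome and metabolic genes were above the median gene in all cells but changed with depth. Of 32 lysosomal genes 26 lay above the median gene with a median of 0.26, which became -0.31 among matched cells with 6 above. All genes between 100 and 300 CPM had a matched median of -0.33. The lysosomal sum was higher in deeper cells of both libraries, at 5940, 6212 and 6950 CPM in the depth groups of Drug and 3749, 4390 and 5447 in those of Control. Subunits of the vacuolar proton pump did the same, at 0.36 and -0.19. CTSD, the protease cathepsin D, had 261 CPM in Drug and 97.9 in Control, at 0.93 in all cells and 0.08 when matched. No direction is drawn for these 2 lists.

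The integrated stress response list, 24 genes measured of 32, had a median of 0.44 with 21 above the median gene, and 0.23 with 16 above among matched cells. PHGDH, the first enzyme of serine synthesis, had 52.7 CPM in Drug and 16.1 in Control, at 1.18 and 0.45 when matched. DDIT3, which encodes CHOP, had 89.99 CPM in Drug and 40.3 in Control, at 0.67 and 0.03 (-0.42 to 0.50). Transfer RNA synthetases stood at 0.41 and 0.06, and their lowest member AARS1 at -1.15 and -1.32. Chaperones of the endoplasmic reticulum stood at 0.07 and -0.29, with HSPA5 (BiP) at 420 CPM in Drug and 235 in Control, 0.36 and -0.17. In the list of its degradation machinery, 1 gene kept its ratio at equal depth. SYVN1, the ubiquitin ligase HRD1, had 35.3 CPM in Drug and 7.93 in Control, a ratio of 1.55 (1.34 to 2.04), 1.40 (0.59 to 2.52) when matched and 1.55 in the irradiated pair.

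Hypoxia and glycolysis genes were higher at every depth examined, by a narrower margin when matched. Of 39 measured genes 33 lay above the median gene with a median of 0.35, against 27 and 0.14 among matched cells and 0.04 in the irradiated pair. They summed to 17012 CPM in Drug and 11516 CPM in Control. PFKP, the platelet phosphofructokinase, had 332 CPM in Drug and 110 in Control, at 1.11 and 0.62. ANGPTL4, an inhibitor of lipoprotein lipase, had 27.2 CPM in Drug and 5.59 in Control, at 1.63 and 0.86 (-0.14 to 2.20). ADM, adrenomedullin, was at 1.59 and -0.02 (-1.46 to 1.58). Matched ANGPTL4 rests on 24 UMIs in Drug and 10 in Control, and matched ADM on 10 in Drug and 8 in Control. Their matched intervals overlap widely, so the matched values do not tell these genes apart. Of Drug cells thinned to 6500 UMIs 85.0% were above the Control median of the list's share, and 49.1% of Control cells were.

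**Figure D4:**
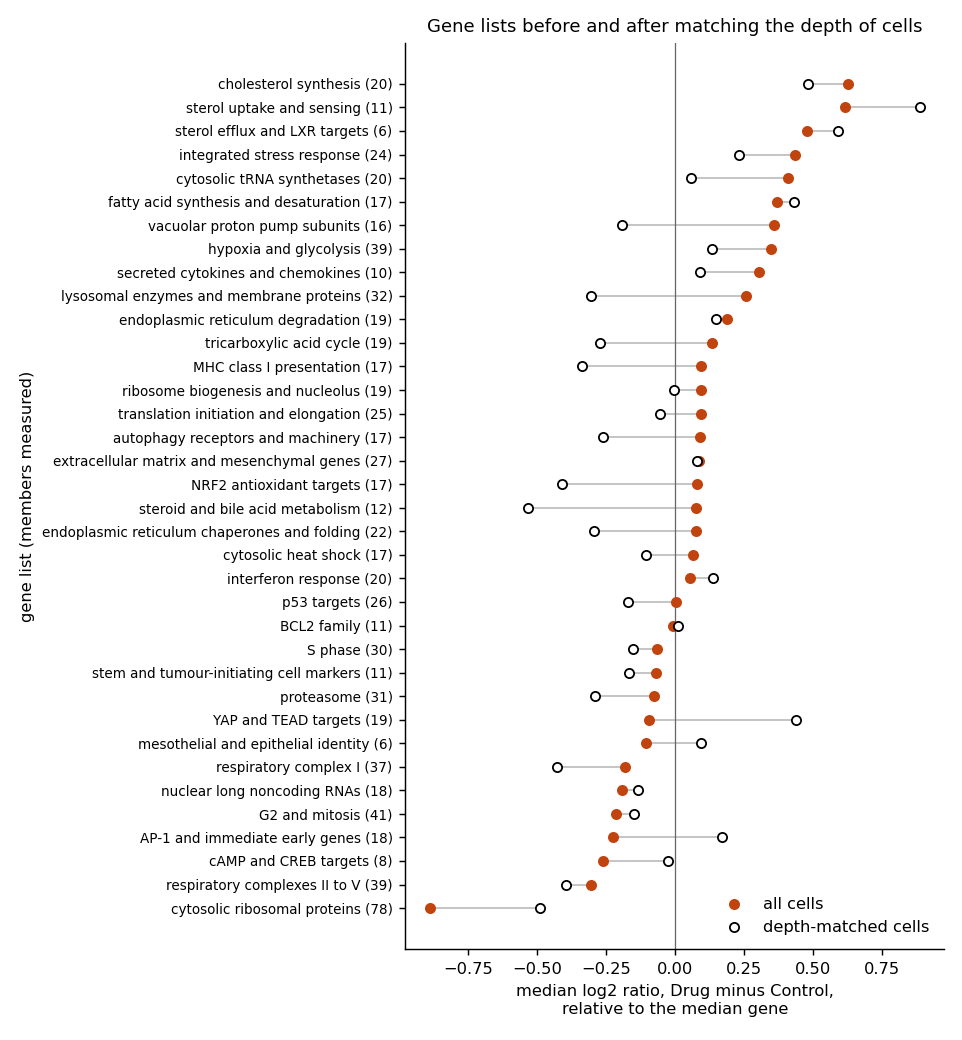
Median relative log2 ratio, Drug minus Control, of each gene list with at least 6 measured members (number in brackets), over all cells (filled) and over depth-matched cells (open). Cholesterol synthesis (0.63 and 0.48) and sterol uptake (0.62 and 0.89) stay above 0 and ribosomal proteins (-0.89 and -0.49) stay below, while the lysosomal list (0.26 and -0.31) crosses 0.

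Cell cycle and p53 lists lay near or slightly below the median gene. Of 30 S phase genes measured, 17 lay below it with a median of -0.07, and of 41 G2 and mitosis genes 31 lay below with a median of -0.21. In the S phase list 2 genes were 2-fold or more lower, 6.67% against 2.82% of all genes. S phase genes summed to 1883 CPM in Drug and 2236 in Control, and G2 and mitosis genes to 1966 in Drug and 1815 in Control. At 6500 UMIs a cell, 28.9% of Drug cells and 48.0% of Control cells lay above the Control median of the S phase share. TOP2A, topoisomerase II alpha, was at -0.62 and -0.65, and MKI67, the proliferation antigen Ki-67, at -0.41 and 0.65 (-0.17 to 1.64). The 26 p53 targets had a median of 0.00. CDKN1A encodes p21, which arrests the cell cycle, and stood at 359 CPM in Drug and 172 CPM in Control. Its ratio was 0.58 (0.52 to 0.66) and turned to -0.53 (-0.75 to -0.31) among matched cells. That interval includes -0.33, the matched median of all genes between 100 and 300 CPM. The CDKN1A level increased with depth within both libraries, with 274, 325 and 402 CPM in the depth groups of Drug and 97.1, 134 and 211 CPM in those of Control.

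Dopamine receptors, the targets named in the series title, had few UMIs or none. DRD1 and DRD5 had 0 UMIs in Drug and 0 in Control. DRD2 had 17 UMIs in Drug and 0 in Control, DRD3 13 and 3 in Drug and Control, and DRD4 40 in Drug and 2 in Control, all under 0.5 CPM. By CPM DRD3 was at 0.149 in Drug and 0.335 in Control, and DRD4 at 0.459 in Drug and 0.224 in Control. DRD2 was at 0.195 CPM in Drug, below the 0.335 CPM that a count of 0 allows in Control. No direction is drawn from counts this low. Of 36 receptors for dopamine, serotonin, histamine, adrenaline and acetylcholine 2 were measured. HRH1, a histamine receptor, had 15.6 CPM in Drug and 9.50 in Control, a ratio of 0.19 (-0.07 to 0.58), and HTR1D, a serotonin receptor, 14.0 in Drug and 8.94 in Control, a ratio of 0.12 (-0.16 to 0.51). Neither interval excludes the median gene. CHRM2, a muscarinic receptor below the 10 CPM limit, had 1.39 CPM in Drug and 5.03 in Control, and CHRM3, another, had 2.47 CPM (215 UMIs) in Drug and 0.335 CPM (3 UMIs) in Control. Targets of CREB, which act downstream of such receptors, had a median of -0.26 over 8 measured genes and are few.

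Of 10 measured cytokines and chemokines 8 lay above the median gene, with ICAM1, an adhesion molecule, at 1.04 with 27.4 CPM in Drug and 8.94 in Control but 0.10 when matched. Interferon response genes stood at 0.06, MHC class I genes at 0.10 (-0.34 when matched, with 15 of 17 below the median gene), extracellular matrix genes at 0.09, and stem and tumour-initiating cell markers at -0.07. The matched MHC class I value was near those of all genes between 100 and 300 CPM (-0.33) and between 300 and 1000 CPM (-0.37). CD44, a surface marker of the tumour-initiating cell list, had 396 CPM in Drug and 258 in Control, at 0.14. Targets of YAP and TEAD were at -0.09 in all cells and 0.44 among matched cells. B2M, the invariant MHC class I chain, was at -0.97 with 2979 CPM in Drug and 4192 CPM in Control.

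The highest protein-coding genes by the smaller of the all-cell and matched ratios held sterol and lipid genes beside genes with near-identical relatives. ARF5, a small GTPase of vesicle traffic (chromosome 7, 127588345 to 127591705 on GRCh38), led with 4650 UMIs in Drug and 11 in Control, 53.3 CPM (51.8 to 54.9) and 1.23 CPM (0.614 to 2.20) in Drug and Control. Its ratio was 4.13, and its level was 67.7 CPM in Drug_Radiation and 0.837 CPM in Radiation. ARF5 thus stood apart in both QTP libraries, with a UMI in 4.89% of Drug cells and 0.0943% of Control cells at 1000 UMIs a cell, and in 61.1% of Drug and 0.346% of Control cells at full depth. Whether the QTP libraries were counted with other settings than the others was not tested, so the ARF5 value is uncertain. DDTL, a relative of D-dopachrome tautomerase, was at 2.96 with 29.1 CPM in Drug and 1.79 in Control. DDTL and DDT together had 354 CPM in Drug and 224 CPM in Control. HNRNPA1L2, a relative of HNRNPA1, was at 1.82 with 53.7 CPM in Drug and 10.2 in Control. Because each has a near-identical relative, the values of DDTL and HNRNPA1L2 are uncertain. By CPM these relatives did not run the other way as RPSAP58 did. DDT had 324 CPM in Drug and 222 in Control, and HNRNPA1 had 1539 in Drug and 1392 in Control. In the irradiated pair HNRNPA1 was lower with QTP, at 1342 CPM in Drug_Radiation and 1803 in Radiation, and DDT was not (295 and 205).

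Others of the 15 were DHCR7, HMGCS1, ACLY, SCD and SYVN1 above, with MXD3, CLVS1, LPCAT4, LOXL4, PNPLA6 and VAMP2. MXD3, a partner of MAX that opposes MYC, was at 1.43 with 55.5 CPM in Drug and 14.1 in Control, and at 0.997 when matched. CLVS1, clavesin 1, was at 1.12 and 2.65. LPCAT4 and PNPLA6 act on lysophospholipids and were at 1.01 and 0.97. LOXL4, a lysyl oxidase, was at 1.01 with -0.12 in the irradiated pair. By role, DHCR7, HMGCS1, ACLY and SCD are sterol, fatty acid or acetyl-CoA enzymes of the lists above.

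The lowest genes were lower by far more than the highest were higher. NGB, the neural oxygen carrier neuroglobin (chromosome 14, 77265483 to 77271312 on GRCh38), had 177 CPM (174 to 180) in Drug and 2944 CPM (2909 to 2980) in Control, a ratio of -4.52. It had a UMI in 16.9% of Drug cells and 94.2% of Control cells thinned to 1000 UMIs. NGB was lower in deeper cells of each library, at 284, 214 and 127 CPM in the depth groups of Drug and 4114, 3456 and 2370 in those of Control, so that even the deep group of Control was above the shallow group of Drug. Among matched cells it was at -2.80, with 134 CPM in Drug_Radiation and 1406 CPM in Radiation. Globin genes other than NGB were not measured.

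STOX1, a winged helix protein (chromosome 10, 68827541 to 68895432), had the lowest ratio. It had 0.493 CPM in Drug and 267 CPM in Control, a ratio of -7.96, but also 0.650 CPM in Drug_Radiation and 0.768 CPM in Radiation. STOX1 was thus high in the Control library and low in the other 3. In all 15 of the lowest genes both QTP libraries were below both libraries without QTP, by little in STOX1 once irradiated. RBM6, an RNA-binding splicing protein, had 201 CPM in Drug and 2117 in Control, THRB, the thyroid hormone receptor beta, 41.8 and 575 in Drug and Control, and SRD5A2, a steroid 5-alpha reductase, 40.3 in Drug and 299 in Control. DSCAML1, a cell adhesion protein, had 4.31 CPM in Drug and 221 in Control, and ATP6V0D2, a proton pump subunit isoform, 3.70 in Drug and 136 in Control. The remaining 8 were ENSG00000225528, TMIGD3, PDZD2, CPNE4, DAB1, KIFBP, CHN2 and MTRNR2L10, with ratios between -4.37 and -2.78.

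**Figure D5:**
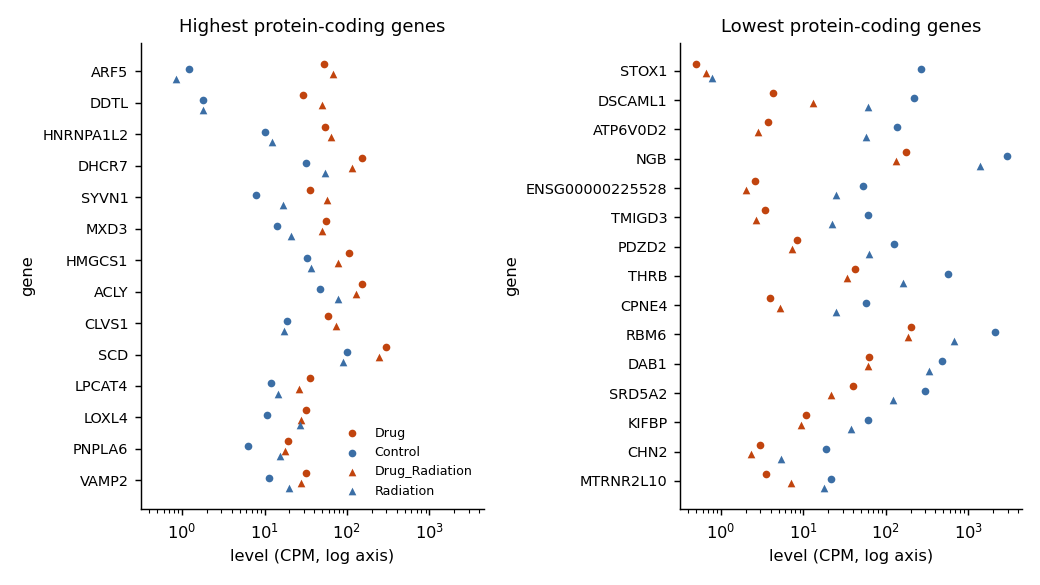
Level in CPM (log axis) of the highest (left panel) and lowest (right panel) protein-coding genes named in the text in Drug, Control, Drug_Radiation and Radiation, ordered by relative log2 ratio. QTP libraries (red) lie right of the libraries without QTP (blue) for ARF5 and left of them for NGB, while STOX1 is high in Control alone.

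Many of the lower genes are long or hold copies of abundant genes. Processed pseudogenes that match a transcript of an abundant gene (mean of at least 500 CPM, 90% identity over 150 bases, GENCODE 29) lie within 4.54% of measured protein-coding genes, 329 of 7249, and within 33.1% of the 2-fold lower ones, 54 of 163. Of the 42 higher genes 1 holds such a copy. Lower genes were also longer, with a median of 76.3 kb against 33.3 kb for all. Among genes over 100 kb a copy lies in 58.7% of the lower ones, 44 of 75, and in 14.1% of all, 199 of 1407. PDZD2 holds RPL5P14, CPNE4 holds RPL7P16 and DAB1 holds RPS26P15, each on the gene's own strand. The part of copies in these ratios was not tested, and the levels of such genes are uncertain. NGB, STOX1, RBM6, THRB and SRD5A2 hold no such copy by this search.

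Single long noncoding genes were far lower in Drug, but the list of nuclear long noncoding RNAs was not. Of its 18 measured members 0 were past 2-fold in either direction. In that list 7 lay above the median gene and 11 below, with a median of -0.19. LINC00486 had 834 CPM in Drug and 9140 CPM in Control, a ratio of -3.93, and stood among the 6 most abundant genes of Control. The 3 lowest by the naming rule were LINC01641, LINC02088 and ENSG00000249413, at -5.10, -4.82 and -3.54. The 3 highest were MEG3, CCDC18-AS1 and ZNF667-AS1, at 0.70, 0.66 and 0.63. NEAT1, the scaffold RNA of nuclear paraspeckles, was at 0.30 in all cells and 2.01 among matched cells. S100A6, a calcium-binding protein and the most abundant gene of Control, had 7223 CPM in Drug and 13040.5 CPM in Control (-1.32), while EEF1A1, the most abundant of Drug, had 12557 CPM in Drug and 12090 CPM in Control.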

How the data were processed

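Single-cell RNA libraries of MSTO-211H cells were deposited as raw UMI counts per gene and barcode, 37468 genes in each of 4 libraries, with 34472 gene IDs found in GENCODE 29. The build is hg38 and Seurat 4.3.3 is named with no role, per the submitters' processing notes. For the aligner, annotation, strand setting and barcode calling, nothing is stated: each is not given in the sources used here. Counts were deposited without normalization. Drug and Control are 1 library each, per the labels. UMIs were summed over cells with under 20% mitochondrial UMIs, scaled to CPM of nuclear-encoded genes, and compared as log2(CPM + 1) over genes with a mean of at least 10 CPM, centred on the median gene. No doublet caller was run, and whether doublets were removed before deposit is not given. Cells were thinned to 1000, 3000 or 6500 UMIs at fixed seeds, or matched on depth. Genes named are the 15 highest and 15 lowest protein-coding genes without a named copy by the smaller of the all-cell and matched ratios, 3 noncoding genes each way, the 3 highest and 2 lowest of each of 45 lists, receptors with a UMI, the 6 most abundant genes, 12 genes always named, and a few others chosen after their values were seen (SQLE, PMVK, RPSAP58, DDT, LINC00486, B2M and the marker genes). The gene lists and the comparison were chosen with earlier results of these data known. Alternatives covered cell filters, depth, weighting, scaling, low-value filters and the added value. TMM and size factors came from edgeR 4.0.16 and DESeq2 1.42.0 and were used only for scaling. They were computed on UMIs summed over the kept cells of Drug and of Control, without mitochondrially encoded genes. Pseudogenes were matched with BLAST 2.17.0. Python 3.11.15, numpy 2.4.6, scipy 1.17.1, pandas 2.3.3 and matplotlib 3.10.9 were used. The counting was tested on simulated data with known changes. A few genes that these rules name are not reported here.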

Additional observations from a re-analysis of the deposited data

Results flagged for a closer look

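Of 7556 measured genes, 7 passed 2-fold in 1 direction between Drug and Control and in the other between Drug_Radiation and Radiation. In all 7 the first was lower and the second higher. Genes past 2-fold were mostly lower in the first pair to begin with, at 213 lower and 42 higher. In the irradiated pair 106 were lower and 44 higher. With 1 library in each group the difference between the 2 pairs was not tested. AKAP6, an anchor of protein kinase A, had relative log2 ratios of -2.31 in Drug against Control and 1.52 in the irradiated pair, a difference of -3.83, and holds a copy of a mitochondrial gene, whose part was not tested. PCBD2, a pterin dehydratase, was at -1.69 and 1.37, a difference of -3.06, and also holds such copies. Copies of mitochondrial genes lie in 0.138% of measured protein-coding genes, 10 of 7249. They lie in 1.84% of those 2-fold or more lower in Drug, 3 of 163. CSKMT, a mitochondrial methyltransferase, was at -1.11 and 1.85, a difference of -2.96. The other 4 were noncoding or without a gene name: KIF5C-AS1 differed by -3.70, ENSG00000289474 by -3.62, ENSG00000280441 by -2.57 and SNHG25 by -2.29.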

How the results depend on the processing

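The 42 genes 2-fold higher in Drug became 103 in cells thinned to 1000 UMIs, 690 in depth-matched cells, 563 with no centring, 78 under TMM, 77 under median-of-ratios, 79 and 24 at a mean of 2.5 and 25 CPM, 536 with no filter on low values and 22 with 5 CPM added. The 213 lower genes became 141 with no centring, 358 at a mean of 2.5 CPM and 355 with no filter. At a mean of 50 CPM, chosen after seeing the data, 13 were higher and 108 lower in all cells, and 123 higher and 54 lower in matched cells. Without ribosomal protein genes 59 were higher and 236 lower, and the cholesterol synthesis median was 0.64. The cause was not tested. Among matched cells 18 of 42 list medians and 37 of 180 named genes changed sign. Of lists at least 0.25 from the median gene, those were lysosomal genes (-0.30), proton pump subunits (-0.19), CREB targets (0.26, over the genes that reach 10 CPM in matched cells) and fibroblast markers (-0.43). With the 50 CPM limit as well, lysosomal genes were at -0.0193 and sterol efflux genes at -0.21. With no centring, respiratory complexes II to V were at 0.17, metallothioneins at 0.16 and CREB targets at 0.21. With no filter, complexes II to V were at 0.0567, CREB targets at 0.17 and leukocyte markers at -0.0950, and at a mean of 25 CPM cytokines were at -0.00150. Of genes past 2-fold in all cells, those were ADM (-0.0161), OS9 (-0.34, and -0.0718 with the 50 CPM limit), UBE2S (0.33 and 0.59) and ENSG00000280441 (0.42 and 0.69). No paired analysis was possible because each group has 1 library, and for the same reason no replicate could be left out. Depth limits Control most: the shallow library leaves low genes with few UMIs.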
